A study of Acipenser schrenckii with 5 samples.

Results

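The Amur sturgeon miRNAs described here are those that the study lists as specific to sturgeon, less 7 near known fish miRNAs. They were read on a microarray through the probes whose names start with novel_. The chip carried 663 miRNA probes, of which 48 had such a name and 615 were standard fish miRNA probes. Leaving out novel_1, novel_4, novel_11, novel_12, novel_13, novel_46 and novel_52, which are near known fish miRNAs, gave 41 miRNAs. Some of these still have a similar probe on the chip, the closest being novel_39, 2 single-base edits from ola-miR-101a-5p, and novel_63, 3 edits from ipu-miR-29c. The RNA came from liver, spleen, brain, muscle and heart of 1 Amur sturgeon (Acipenser schrenckii) of 5 months, and 1 array was hybridized per tissue with Cy3 as the only dye. The miRNAs had been predicted by sequencing pooled RNA of another fish. The label of the brain sample is misspelt as Bain, and the study lists brain among its tissues. With 1 fish and 1 array per tissue, differences between tissues were not replicated and could not be tested. The 5 repeat spots of each probe give a technical error only, written below as the SD over 5 spots.

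A miRNA is cut from a folded precursor, the hairpin, and either of the paired arms of its stem can end up as the mature miRNA. In many hairpins 1 arm predominates, while the other is found at a lower level or in other tissues. The mature miRNA finds its target mRNAs mainly through its seed, bases 2 to 8 from the 5′ end, and members of a miRNA family share that seed. A sequence that matches no known miRNA may therefore still lie in the hairpin of a known family, on the less studied arm.

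Of the 41 miRNAs, 5 had a normalised Signal above 500 in at least 1 tissue, and the results turn mainly on them. Signal is the mean over the 5 spots after background correction (normexp) and normalization between the arrays (cyclic loess). The sequences are printed from 5′ to 3′ as the scanner files list them for the probes, with the seed in capitals, followed by novel_42, the next by Signal.
novel_60: aGGUGGGGaguuugacug
novel_63: cUGGUUUCaggugguggcuuaga
novel_6: uGAUAGAAcuccgugccacaggc
novel_43: gGAUUCCUggcaauacuguucu
novel_8: cAUCGGGAagcucgugucagcc
novel_42: uCCUCACAgggcugcucucug
Among all 41 miRNAs the length ran from 18 to 24 bases with a median of 22, and 39 were of 21 to 23 bases. The bright novel_60 was the shortest at 18 bases, and its hairpin was also the shortest, at 38 bases against a median of 60. None of the sequences was compared here with rRNA or other classes of RNA, so such an origin was not tested.

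Every one of the 41 seeds was different. Only 3 miRNAs shared a seed with another probe, 7.32% of them, compared with 72.8% of the other 622 probes, where the same miRNA is often spotted from several fish species. These were novel_63 with ipu-miR-29c, novel_39 with ola-miR-101a-5p and ola-miR-101b-5p, and novel_24 with ola-miR-187. The distance to the nearest other probe, counted as the smallest number of single-base edits between the full sequences, had a median of 8, and 35 of the 41 were 5 or more edits from every other probe. Since nearness to known fish miRNAs was also what left out 7 probes, this distance is partly set by how the miRNAs were chosen. It covers only the probes of this chip. Known miRNAs without a probe there were not compared, so the distance does not show that a sequence is unlike every known miRNA.

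The hairpins told more than the mature sequences. In 7 of the 41 the arm opposite to the miRNA matched a standard fish probe within 2 edits, a limit that was set with the values known. These hairpins are printed because they place the miRNA beside a known family. Capitals mark the stretches of the miRNA and of the fish probe (the best match, where several matched), and lower case marks the loop and ends.
novel_63 and dre-miR-29b: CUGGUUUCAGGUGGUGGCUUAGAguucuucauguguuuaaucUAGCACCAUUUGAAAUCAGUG
novel_43 and ipu-miR-145: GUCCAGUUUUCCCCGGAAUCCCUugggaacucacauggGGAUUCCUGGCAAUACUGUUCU
novel_8 and ola-miR-731: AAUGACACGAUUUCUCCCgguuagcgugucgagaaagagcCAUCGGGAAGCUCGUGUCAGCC
novel_39 and ola-miR-101a-3p: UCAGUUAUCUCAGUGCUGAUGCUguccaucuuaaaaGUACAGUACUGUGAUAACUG
novel_30 and ccr-miR-7a: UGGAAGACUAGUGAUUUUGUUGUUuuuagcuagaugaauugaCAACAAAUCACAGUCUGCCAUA
novel_57 and dre-miR-148: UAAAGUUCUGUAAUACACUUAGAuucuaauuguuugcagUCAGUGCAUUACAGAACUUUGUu
novel_47 and dre-let-7a: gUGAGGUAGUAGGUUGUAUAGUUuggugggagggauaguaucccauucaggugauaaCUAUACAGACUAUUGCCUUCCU
In novel_63, novel_39 and novel_57 the miRNA is the first stretch in capitals, and in novel_43, novel_8, novel_30 and novel_47 it is the second. The opposite arms of novel_30, novel_57 and novel_47 held ccr-miR-7a, dre-miR-148 and dre-let-7a with no edit. The probes dre-miR-29b, ipu-miR-145, ola-miR-731 and ola-miR-101a-3p were 1 edit from the hairpins of novel_63, novel_43, novel_8 and novel_39. Allowing 3 edits, a limit added after seeing the data, brought in only novel_9 (8 miRNAs in all), whose hairpin held a stretch near hhi-miR-147b. No genome was used here, so the hairpins have no coordinates. Whether a fish probe reads RNA of that hairpin alone was not tested, so a difference between the probes need not be one between the arms.

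Detection followed the 3 kinds of criteria the study names, on signal against background, spot variation and repeat spots. The background was taken here from the 361 empty spots of each array, a choice the study does not state. A spot passed if it rose above the median of the 20 empty spots nearest to it by over 3 SD of all empty spots and had a coefficient of variation under 0.5, and a probe was detected where 50% or more of its spots passed. The values used for this were the raw Density, the deposited fluorescence of a spot in scanner units before any correction. In at least 1 tissue, 22 of the 41 miRNAs (53.7%) were detected, against 71.9% of all 663 probes. Of the standard fish probes, 72.8% were detected, and all 7 of the probes left out as near known miRNAs. Detection in all 5 tissues was found for 3 miRNAs, novel_60, novel_6 and novel_43 (7.32%, against 25.6% of all probes). A further 4 were detected in 4 tissues, 4 in 3 tissues, 4 in 2 tissues and 7 in a single tissue. No share of all probes is given for these counts. A Signal above 500 was reached by 5 of the 41 (12.2%, against 48.4% of all probes).

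By tissue, muscle held 16 detected miRNAs (39.0%, against 65% of all probes), brain 14 (34.1%, against 55.8%), spleen 13 (31.7%, against 50.2%), heart 12 (29.3%, against 52%) and liver 3 (7.32%, against 29.7%). On every array the share was lower among these miRNAs than among all probes. The limit differed between arrays. The median Density of the empty spots plus 3 SD was 273.9 in liver and 130.5 in brain, and it was 84.5 for muscle, 90.6 for spleen and 91.3 for heart, so liver asked for the brightest spots. In liver the SD of the empty spots was 58.5 with the brightest at 668.7, and a robust SD, from the median absolute deviation, was 13.2. With the robust SD, 28 of the 41 were detected in at least 1 tissue (76.6% of all probes), 8 in liver (43.3% of all probes), 25 in brain (68.2%) and 20 in heart (62.1%). Those gained in liver were novel_8, novel_9, novel_57, novel_63 and novel_75, given below as undetected there. Among those gained in brain were novel_9, novel_19, novel_31, novel_44, novel_57 and novel_72. Among those gained in heart were novel_17, novel_19, novel_31, novel_44, novel_47 and novel_72. Empty spots judged by the same spot criteria passed in 7 of 361 cases in brain and 5 in liver, as well as 3 in heart, 1 in spleen and 0 in muscle.

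**Figure D1:**
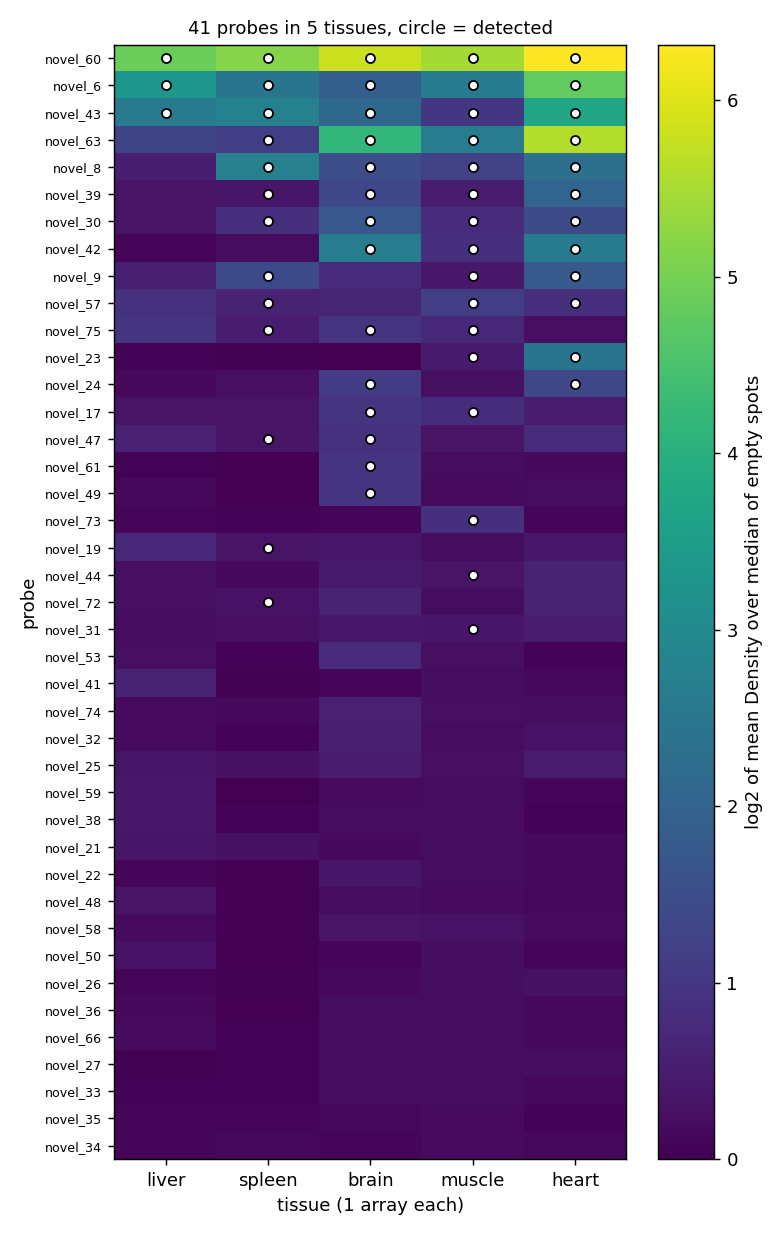
The 41 miRNA probes (rows) in the 5 tissues (columns), coloured by the log2 of their mean Density over 5 spots divided by the median Density of the empty spots of the same array. White circles mark the tissues where the probe was detected, from 16 on the muscle array to 3 on the liver array.

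By kind of hairpin the shares differed. All 7 miRNAs that lie opposite to a known fish miRNA within 2 edits were detected in at least 1 tissue. This compares with 15 of the other 34 (44.1%) and with 71.9% of all 663 probes. This contrast depends on the limit of 2 edits, which was set with the values known. At 3 edits novel_9 joins, which was detected. At 4 edits novel_21 (near dre-miR-2188-5p) and novel_41 (near ola-miR-459-3p) join, and neither was detected. With a limit of 5 SD novel_47 was lost, leaving 6 of 7 against 9 of 34 (65.6% of all probes). Under the other 4 detection rules all 7 were detected. Of the other 34, 21 were detected with the robust SD (76.6% of all probes). With the median of all empty spots as background it was 14 (73.8% of all probes). Requiring all 5 spots left 11 of the 34 (67.6% of all probes), and no limit on spot variation left 15 (72.1%). The 7 include novel_63, novel_43 and novel_8, which are 3 of the 5 with Signal above 500. By arm, 10 of 18 were detected among miRNAs on the 5′ arm and 12 of 23 on the 3′ arm, against 71.9% of all probes. Known animal miRNAs often begin with U, and 51.9% of the other probes did, but only 12 of the 41 (29.3%). Of those 12, 9 were detected (75.0%, against 80.5% of the other probes beginning with U). For C it was 7 of 9 (77.8%, against 62.8%), for A 5 of 16 (31.2%, against 71.4%) and for G 1 of 4 (25.0%, against 50%). The GC content had a median of 46.5% in detected and 45.5% in undetected miRNAs. These shares are counts on 5 arrays and were not tested.

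The labelled tissues were checked against probes for miRNAs typical of them. All 12 probes for liver (miR-122, miR-192 and miR-194) ranked best in liver, all 11 for skeletal muscle (miR-1, miR-133a and miR-206) in muscle, 13 of 17 for brain (miR-9, miR-124 and miR-219) in brain, and 8 of 13 for white blood cells (miR-142, miR-223 and miR-150) in spleen. Of 11 probes for heart (miR-499, miR-1 and miR-133a) 8 ranked best in muscle, and their summed Density was 69757 in heart and 49397 in muscle. Markers of other cells were present as well. All 7 probes for pancreas (miR-216, miR-217 and miR-375) ranked best in liver, as did 10 of 12 for gut and other epithelium (miR-200, miR-141 and miR-429), and 7 of 10 for skin (miR-203 and miR-205) did so in muscle. Fewer cells of a type and less miRNA per cell cannot be told apart in such tissue RNA.

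On every array all 5 spots of novel_60 passed, and its Density was far from the empty spots. Whether its short sequence comes from a miRNA or from rRNA or another class of RNA was not tested. The Density was 4324 ± 195 in brain, 4134 ± 712 in heart, 3089 ± 204 in muscle, 2914 ± 675 in liver and 2602 ± 117 in spleen. This was 79.5 times the median of the empty spots for heart, 55.7 times for brain, 44.2 times for muscle, 35.7 times for spleen and 29.6 times for liver. The liver spots included 1 at 1777, the others lying between 3029 and 3588, and in heart 2 spots at 3338 and 3376 lay below the other spots, at 4594 to 4762. No tissue was near background. Among the 663 probes of each array, novel_60 ranked 24 in liver and 28 in muscle, and 56 in spleen, 74 in brain and 83 in heart, a rank that does not depend on normalization between arrays. Brightness also differs between probes by their sequence, so ranks are used here only to set the tissues of a probe side by side. After normalization its Signal was 6709 ± 446 in muscle and 6504 ± 1493 in liver, a ratio of 1.03 ± 0.247, so these tissues differed by less than the spread of the spots. Brain had Signal 2986 ± 133, spleen 2346 ± 92 and heart 1795 ± 298. Signal was also computed under 5 alternatives, which were quantile normalization, scaling each array by its median probe Density above the empty spots, no normalization, plain background subtraction, and the median over spots. Muscle over the highest other tissue then ran from 0.480 to 1.004 for novel_60, so no tissue can be named as its brightest.

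The tissue pattern of novel_63, on the arm opposite to miR-29b, was uneven. The miR-29 family is known in mammals for targeting collagen and other matrix mRNAs. The Density of novel_63 was 2502 ± 350 in heart, 1407 ± 58 in brain, 439 ± 40 in muscle, 243 ± 32 in liver and 163 ± 12 in spleen, where it was still detected with all 5 spots. In liver none of its 5 spots passed, though novel_63 was detected there with the robust SD. Its lowest heart spot, at 1878, lay above its highest brain spot, at 1477, and its lowest brain spot, at 1319, above its highest muscle spot, at 483. After normalization heart was still highest and spleen lowest, but heart and brain drew together, with Signal 1577 ± 219 and 1395 ± 57, a ratio of 1.13 ± 0.163 that lies within the spread of the spots. Muscle had Signal 823 ± 80 and spleen 183 ± 18. Heart was 3.27-fold above liver, taking the probe's own Signal there (483 ± 78), which was higher than the lowest detected Signal on that array (365.6). This is not a strict lower bound, since novel_63 was not detected in liver under the main rule.

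The fish probe of the opposite arm gave another pattern in part. Every array detected dre-miR-29b. Its Signal was 5885 ± 235 in brain, followed by heart at 3742 ± 242, spleen at 2879 ± 152, liver at 1511 ± 558 and muscle at 738 ± 61. Brain and heart were above the other detected tissues for both arms in Signal, except that spleen exceeded them for dre-miR-29b with scaling by the median (0.590 for the lower of brain and heart over spleen). The probes ran in opposite order in spleen and muscle. Muscle was 4.49-fold above spleen for novel_63 (1.65 to 6.48 under the 5 alternatives), and spleen was 3.90-fold above muscle for dre-miR-29b (3.91 to 22.97). By rank on the array, novel_63 was 268 in spleen and 167 in muscle, while dre-miR-29b was 52 in spleen and 187 in muscle. The closest probe to novel_63 by sequence was ipu-miR-29c, which has the same seed and is 3 edits away.
novel_63: cUGGUUUCaggugguggcuuaga
ipu-miR-29c: cUGGUUUCacauggugguuuaga
In spite of that nearness, ipu-miR-29c was not detected in muscle (Density 81.6 ± 7.4), where all 5 spots of novel_63 passed. It was detected in brain (147 ± 11), heart (95.1 ± 16.1) and spleen (88.3 ± 7.6).

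**Figure D2:**
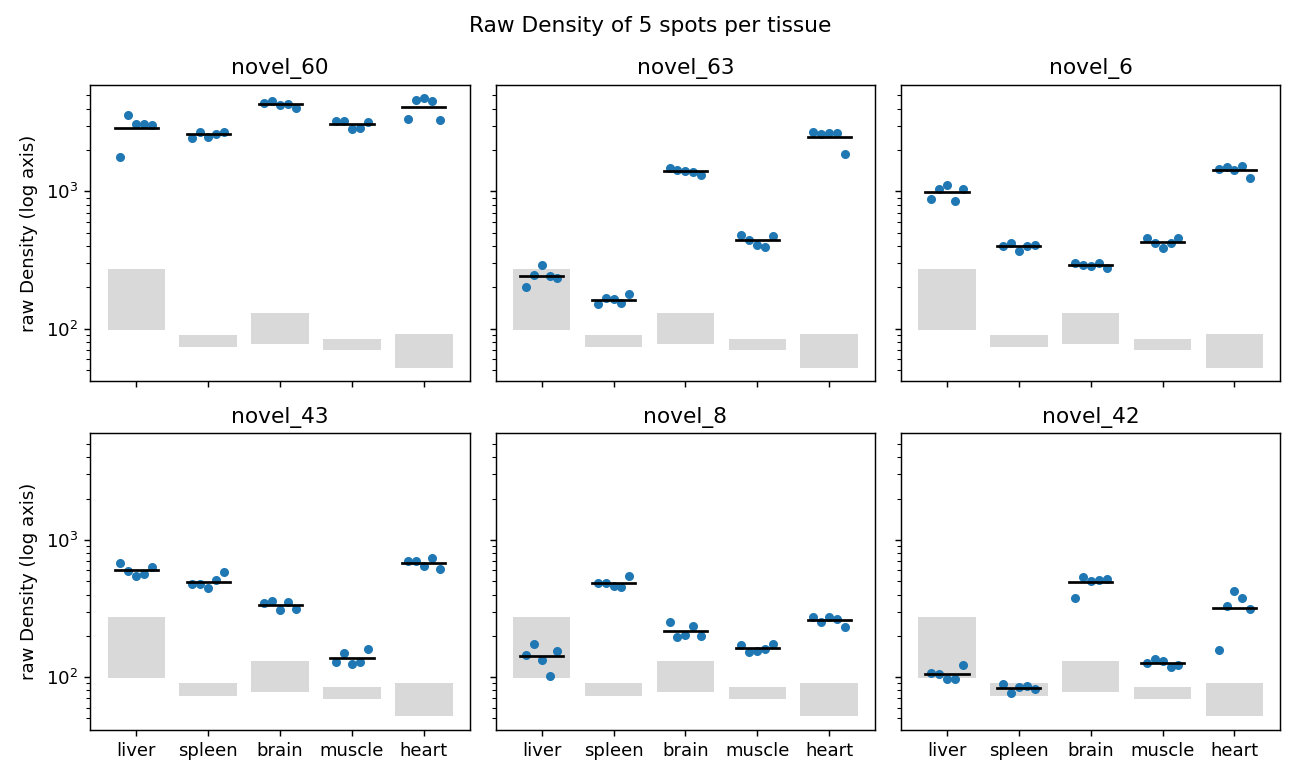
Raw Density (log axis) of the 5 spots of 6 miRNAs in each tissue, with black lines for the mean. Grey bands run from the median of the empty spots of that array to the median plus 3 SD, and the band of liver reaches 273.9, above all spots of novel_8 and novel_42 there and around those of novel_63.

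Another miRNA detected in every tissue was novel_6, for which no partner among the fish probes was found. Its Density was 1435 ± 111 in heart and 983 ± 115 in liver, followed by muscle at 431 ± 30, spleen at 400 ± 20 and brain at 291 ± 11. The spots of heart and liver did not overlap, nor did those of brain with any other tissue. Liver and heart changed places with the scale. By rank novel_6 was 76 in liver, 149 in heart, 170 in muscle, 194 in spleen and 277 in brain, and its Signal was 2267 ± 277 in liver and 873 ± 70 in heart, a ratio of 2.60 ± 0.379. Without normalization between arrays heart was above liver instead, with a ratio of 0.655 for liver over heart, and when the arrays were scaled by their median probe Density it was 0.943. Brain was lowest in Density, rank and Signal (234 ± 11), under all 5 alternatives also. The study also measured some miRNAs, novel_6 among them, by real-time PCR in the same tissues of several fish. It reports that the PCR bore out its array pattern, except for miR-101a, which was much lower in heart. Those PCR values were not used here. The pancreas markers, which also ranked best in liver, had a summed Density of 11118 in liver and from 530 to 5491 elsewhere, and their part in the levels of novel_6 and of novel_43, below, was not tested.

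The third miRNA detected in all 5 tissues was novel_43, opposite to miR-145, a miRNA known in mammals for smooth muscle. The Density of novel_43 was 681 ± 52 in heart, 603 ± 55 in liver, 497 ± 51 in spleen, 336 ± 23 in brain and 139 ± 16 in muscle. The spots of heart and liver overlapped, as did those of liver and spleen, whereas the highest muscle spot, at 162, lay below the lowest brain spot, at 308. After normalization Signal was 1261 ± 133 in liver, 765 ± 78 in spleen, 451 ± 37 in heart, 297 ± 24 in brain and 210 ± 32 in muscle. The ratio of liver to spleen was 1.65 ± 0.241, and it fell below 1 for liver over the highest other tissue without normalization (0.832) and with scaling by the median (0.558). Its partner ipu-miR-145 had Signal 7971 ± 3514 in liver, 6482 ± 164 in heart, 4701 ± 461 in brain, 4511 ± 227 in spleen and 2172 ± 261 in muscle. Muscle was lowest for both arms, in rank (295 for novel_43 and 98 for ipu-miR-145) and in Signal, under all 5 alternatives also. By rank ipu-miR-145 stood highest in heart, at 10, and novel_43 in liver, at 109.

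The last with Signal above 500, novel_8, was highest in spleen by each measure. It lies opposite to miR-731, a miRNA of teleost fish. Its Density was 487 ± 36 in spleen, 259 ± 19 in heart, 218 ± 25 in brain, 163 ± 9 in muscle and 143 ± 27 in liver, where no spot passed. The lowest spleen spot, at 456, was above the highest spot of any other tissue, at 274 in heart. Signal was 877 ± 64 in spleen and 261 ± 20 in muscle, the next tissue, a ratio of 3.35 ± 0.353. The rank of novel_8 was 179 in spleen and from 273 to 324 elsewhere. Its spleen Signal was 2.40-fold above the lowest detected Signal in liver, which is not a strict lower bound. Spleen stayed above every other tissue under all 5 other ways of processing, with ratios from 1.97 to 6.29. The probe of the opposite arm, ola-miR-731, was detected in no tissue, and dre-miR-731 was detected in spleen (Density 102 ± 3) and muscle (99.3 ± 6.2). Spleen also held the blood markers. All 6 probes for red blood cells (miR-144 and miR-451) ranked best there, with a summed Density of 35680 in spleen and from 4242 to 19616 in the other tissues, and the white cell list summed to 54484 in spleen and 71417 in heart. Their part in the level of novel_8 was not tested.

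**Figure D3:**
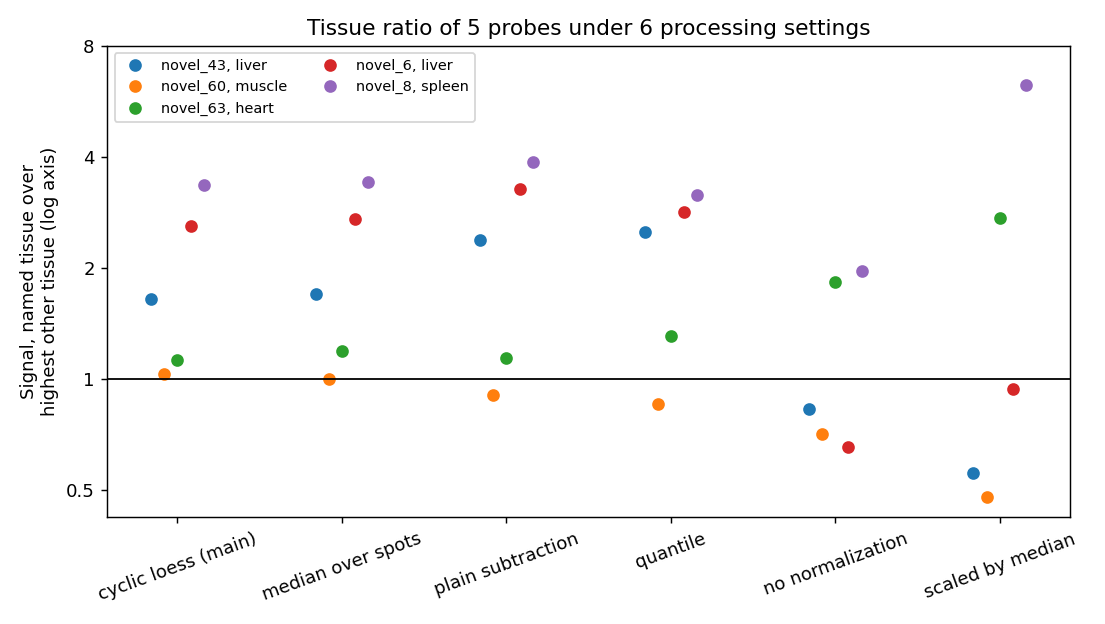
Signal of each of the 5 bright miRNAs in the tissue named in the key, divided by its Signal in the highest other tissue (log axis), under 6 ways of processing. The ratio of novel_8 in spleen lies between 1.97 and 6.29 and that of novel_63 in heart between 1.13 and 2.74, while novel_6 and novel_43 fall below the line at 1 without normalization and with scaling by the median, and novel_60 lies near or below it.

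Below 500 in Signal, novel_42 was detected in 3 tissues. Its Density was 491 ± 64 in brain, and 321 ± 101 in heart and 127 ± 7 in muscle, with 5 spots passing in each. It was 106 ± 11 in liver and 83.7 ± 4.7 in spleen, where the miRNA was not detected. The heart spots ran from 159 to 424, with the lowest far from the others, and overlapped the brain spots (378 to 538). Signal was 452 ± 72 in brain and 288 ± 92 in heart, and the rank was best in brain, at 232.

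Heart was the highest tissue for novel_23. Its Density there was 284 ± 39, and it was 96.2 ± 4.6 in muscle, the only other tissue with detection, 102 ± 10 in liver, 77.6 ± 5.2 in brain and 74.8 ± 5.7 in spleen. All heart spots, at 220 to 325, were above all spots of the other tissues. The rank was 263 in heart and 384 in muscle. Known miRNAs without a probe on the chip were not compared with this miRNA. Its nearest probe on the chip was dre-miR-736, a zebrafish sequence 4 edits away.
novel_23: aUAAGACAaacaaaagguuugu
dre-miR-736: gUAAGACGaacaaaaaguuuu
The probe dre-miR-736 was detected in no tissue, with a Density of 85.2 ± 8.7 in heart.

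The remaining miRNAs opposite to known ones were weaker. The arm opposite to miR-101, novel_39, had a Density of 216 ± 36 in heart, 199 ± 43 in brain, then muscle at 98.3 ± 8.3 and spleen at 94.5 ± 3.0. Liver, at 125 ± 20, had no detection. Brain and heart were the upper tissues in Signal under the main and the 5 other settings, as they were for ola-miR-101a-3p, whose Signal was 2351 ± 154 in brain, 1806 ± 71 in heart and from 536 to 671 in the others. A standard probe for the same arm, ola-miR-101a-5p, shares the seed of novel_39 and differs by 2 edits.
novel_39: uCAGUUAUcucagugcugaugcu
ola-miR-101a-5p: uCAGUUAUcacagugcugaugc
Of its spots none passed in any of the 5 tissues, and its Density was 57.7 ± 4.3 in heart.

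For novel_30, opposite to miR-7, a miRNA known from nerve and endocrine cells, the Density was 254 ± 14 in brain, ahead of heart at 140 ± 10, spleen at 134 ± 8 and muscle at 121 ± 10. In liver it was 123 ± 6, without detection. Its brain Signal of 198 ± 15 was close to the 193 ± 18 of spleen, whereas the partner ccr-miR-7a reached 1807 ± 81 in brain and 860 ± 86 in spleen. The miRNA opposite to miR-148, novel_57, had a Density of 158 ± 11 in muscle, 112 ± 5 in spleen and 94.7 ± 7.5 in heart, and was undetected at 122 ± 14 in brain and 185 ± 25 in liver. In Signal muscle was highest among the detected tissues of novel_57, 1.43-fold above spleen, except with scaling by the median (0.898). Liver, detected only with the robust SD, was close to muscle, with Signal 187 ± 40 against 192 ± 19. By rank novel_57 stood higher in liver, at 260, than in muscle, at 284, so no tissue is named as its brightest. Muscle was also highest for dre-miR-148, at 1301 ± 100 against 976 ± 119 in liver, but not without normalization (0.843 against the highest other tissue) or with quantile normalization (0.986). Opposite to let-7a, the regulator of developmental timing first known from worms, novel_47 was just above the limit with a Density of 144 ± 37 in brain and 91.4 ± 3.4 in spleen, and was detected in no tissue with a limit of 5 SD. The probe dre-let-7a was detected in all 5 tissues, with its highest Signal, 13460 ± 496, in brain. A 3′ arm probe of let-7a from another fish, pol-let-7a-3p, is 4 edits from novel_47.
novel_47: cUAUACAGacuauugccuuccu
pol-let-7a-3p: cUAUACAAccuacugccuucc
It was detected in spleen, brain, muscle and heart, with a Density of 1371 ± 112 in brain, and novel_47 in spleen and brain only.

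**Figure D4:**
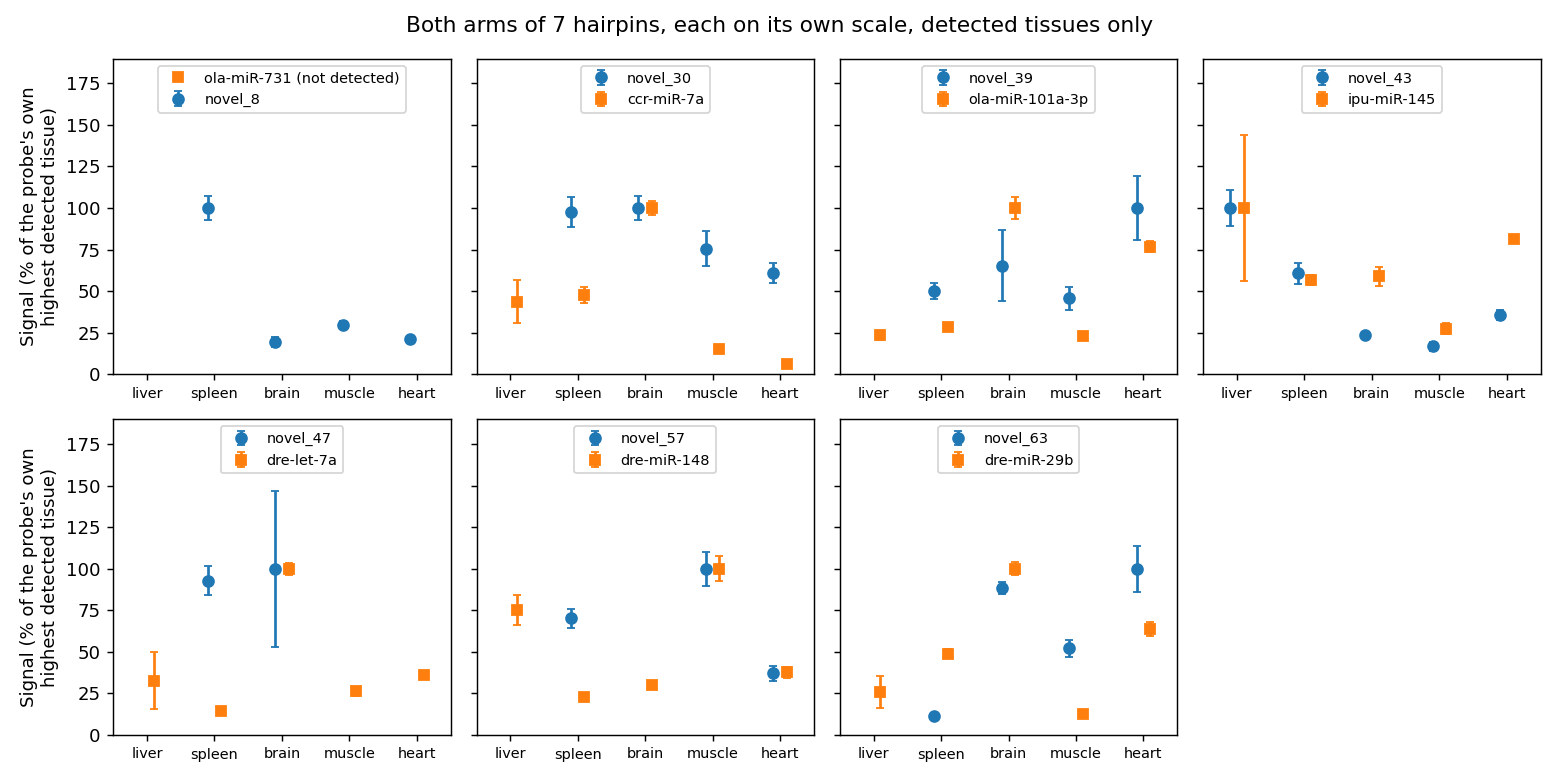
Signal of the miRNA (blue circles) and of the fish miRNA probe on the opposite arm of its hairpin (orange squares) in the tissues where each was detected, as a percentage of the probe's own highest detected tissue, with the SD over 5 spots. Levels of the probes cannot be compared with each other. Among the tissues shown both probes are highest in muscle for novel_57 and in liver for novel_43, which other scalings turn. Liver is not shown for novel_57, as it was undetected there, though its Signal was close to that of muscle. For novel_63 and its partner spleen and muscle are in opposite order.

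Among the miRNAs without a partner, novel_9 was detected in spleen (Density 194 ± 10), heart (177 ± 11) and muscle (93.5 ± 4.5), and novel_75 in brain (149 ± 27), muscle (116 ± 7) and spleen (103 ± 5). The liver spots of novel_75, with a mean of 193 ± 62, did not pass. In 2 tissues were novel_24, with 169 ± 13 in brain and 132 ± 17 in heart, and novel_17, with 152 ± 13 in brain and 123 ± 6 in muscle. All of these were within 4 times the median of the empty spots of their array.

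Of 7 miRNAs detected in a single tissue, novel_73 was found in muscle, with a Density of 127 ± 7 there and from 55.9 to 106 elsewhere. The skin markers had a summed Density of 20164 on the muscle array and from 652 to 1350 on the others, and their part in the level of novel_73 was not tested. The miRNAs novel_49 and novel_61 were detected in brain alone, with a Density of 149 ± 9 and 149 ± 3, all 5 spots passing. They are 3 edits apart and share 17 bases in a row, written here in capitals, but not the seed.
novel_49: cagCACUAAUCUUGGACUACu
novel_61: auCACUAAUCUUGGACUACcu
Similar probes can take up the same RNA. Whether this pair did was not tested, so novel_49 and novel_61 are not taken as independent readings. With a limit of 5 SD of the empty spots neither was detected. The other 4, novel_19 and novel_72 in spleen and novel_31 and novel_44 in muscle, rested on 3 spots of 5, with Densities of 91.9 ± 5.3, 89.9 ± 6.9, 90.3 ± 7.7 and 88.6 ± 7.6. With all 5 spots required, none of these 4 was detected. With the robust SD all 4 were detected in brain and heart as well, and novel_31 was no longer detected in muscle. Their detection in a single tissue therefore depends on the rule.

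The 19 miRNAs detected in no tissue were novel_21, novel_22, novel_25, novel_26, novel_27, novel_32, novel_33, novel_34, novel_35, novel_36, novel_38, novel_41, novel_48, novel_50, novel_53, novel_58, novel_59, novel_66 and novel_74. Their mean Density ran from 101 to 149 in liver (median of the empty spots 98.4), from 82.3 to 130 in brain (77.6), from 79.0 to 86.1 in muscle (69.8), from 71.7 to 89.1 in spleen (72.9) and from 54.3 to 72.0 in heart (52.0). All 19 lay above the median of the empty spots in liver, brain, muscle and heart, but not in spleen. So did most of all probes, whose lower quartile was 110.5 in liver, 94.5 in brain, 82.0 in muscle and 58.8 in heart. Lying above the empty spots is therefore not particular to these miRNAs. The highest value in liver, for novel_41, came from 1 spot at 319 with a median over the spots of 107. With the robust SD, novel_22, novel_25, novel_32, novel_53 and novel_74 were detected in brain, and novel_25 and novel_26 in heart. The hairpin of novel_27 held a stretch 2 edits from novel_38, outside the stretch of novel_27 itself, and neither was detected. At this limit of detection the absence of a signal does not show that a miRNA is absent.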

How the data were processed

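For each array the authors deposited scanner output with the Density, a raw spot intensity on a linear scale, and its SD over the pixels. The authors read the chips with a GenePix laser scanner and used Array-Pro to digitize them. The files write Density with a comma as digit separator, which was removed. The authors' processed table was not used, because its row names were not relied on.

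No local background is given, so normexp (offset 50) was used for background correction, followed by cyclic loess between arrays (3 iterations, log2 scale) over the 3315 probe spots, with limma 3.58.1 in R 4.3.3. The offset was then taken off. Signal is the mean over 5 spots, and ratio errors combine the SDs over spots. A ratio against a tissue without detection used the lowest detected Signal there or the probe's own, whichever was higher. Such a ratio is approximate. Ranks are of mean Density among the 663 probes of an array. Other steps used Python 3.11.15, numpy 2.4.6, pandas 2.3.3 and edlib 1.3.9.post1. Probe sequences are those of the scanner files and hairpins those the study lists for each miRNA, and no other value was taken from its tables. The partner in a hairpin was the fish probe with the fewest edits, then the longest, then the first by name.

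All miRNAs detected in at least 1 tissue were named with their values, those with Signal above 500 with ratios also, and the others by name and range. The miRNAs and the marker lists were chosen with earlier results of these data known. Precision is limited by having 5 arrays, and no p-values were calculated. The detection call and the normalization were checked on simulated arrays, with planted probes well above an even background. Probes near the limit, an uneven background and the hairpin search were not covered by that check. Other background limits, spot rules and normalizations were tried as alternatives.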

Additional observations from a re-analysis of the deposited data

How the results depend on the processing

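Detection in at least 1 tissue was made for 15 (limit of 5 SD, 65.6% of all probes) to 28 (robust SD, 76.6%) of the 41 miRNAs under 5 other detection rules. A robust SD moved the number in all 5 tissues from 3 to 7 (38.6% of all probes), in liver from 3 to 8 (43.3%), in brain from 14 to 25 (68.2%) and in heart from 12 to 20 (62.1%), and the limit of 5 SD moved brain to 9 (49.5%). Signal above 500 was reached by 4 miRNAs with quantile normalization or none, and by 5 otherwise. Of all probes 48.4% reached it under the main setting, and no such share is given for the other settings. Under the main setting each of these 5 miRNAs had a tissue with the highest Signal, for novel_60 and novel_63 by less than the spot error. Of these 5 highest tissues, 2 were kept without normalization and 2 with scaling by the median. For liver over the highest other tissue these settings gave 0.655 and 0.943 for novel_6 and 0.832 and 0.558 for novel_43, both reversed, and 0.711 and 0.480 for muscle in novel_60, whose ratio was within the spot error. The cause was not tested. No paired analysis was possible because there is 1 array per tissue, and no replicate could be left out. Probes under the limit of an array have no order.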
